A study of Mus musculus with 2 samples.

Results

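Lag3, Havcr2, Tigit, Cd160, Lilrb4a and Lilr4b are 6 genes listed together as coinhibitory receptors. Lilr4b is counted among them as a close relative of Lilrb4a, and an inhibitory role of its product was not tested. The genes were picked by name from the 28009 genes counted in 2 single-cell libraries of mouse IL-10+ CD4+ T cells. All 6 had unique molecular identifiers (UMIs) in both libraries. The cells were sorted from the spleen and from the small intestine of IL-10eGFP Foxp3mRFP double reporter mice, in which eGFP marks Il10 transcription and mRFP marks Foxp3, and Foxp3+ cells stayed in the sort. The study used mice of 8 to 16 weeks and gave anti-CD3 antibody (clone 2C11, 15 µg) into the peritoneum on days 0 and 2, killing the animals 4 h after the second injection. Both tissues therefore come from anti-CD3-treated reporter mice, no untreated library was analysed here, and the number of animals behind each library is not given in the sources used here. Each tissue is 1 library, so no difference between tissues has a replicate check, and every interval below covers counting error only.

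Coinhibitory receptors are surface proteins that dampen signalling through the T cell receptor. LAG-3 is a CD4 relative that binds MHC class II, TIM-3 (Havcr2) binds galectin-9, HMGB1, CEACAM1 and phosphatidylserine, TIGIT competes with the activating receptor CD226 for CD155 (Pvr), and CD160 shares the ligand HVEM (Tnfrsf14) with BTLA. LILRB4 (Lilrb4a, formerly gp49B) carries inhibitory tyrosine motifs in its cytoplasmic tail and is best known on myeloid and mast cells, while Lilr4b (gp49A) encodes a close relative with a shorter tail. Several of these receptors appear together on IL-10-producing type 1 regulatory T cells, and the study used LAG-3, TIGIT and TIM-3 among the proteins that mark such cells.

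In the GENCODE M21 annotation of GRCm38, the build also named in the study's methods (Mm10), Lag3 lies at chr6:124904361-124911705 on the minus strand, Havcr2 at chr11:46454935-46481255 on the plus strand, Tigit at chr16:43648867-43664146 on the minus strand and Cd160 at chr3:96798763-96829351 on the minus strand. The Lilr4b and Lilrb4a genes are neighbours on the plus strand, at chr10:51480632-51486703 and chr10:51490956-51496611. Their counts are the least certain of the 6. The identifier that the files call Lilrb4a belongs in M21 to a read-through locus, Gm49339, at chr10:51480612-51496613, which spans both genes. Its exons hold 1846 of 5227 Lilrb4a exon bases (35.3%) and 122 of 5439 Lilr4b exon bases (2.24%). The identifier that the files call Lilr4b is absent from M21. The coding sequences of the transcripts Lilrb4a-201 and Lilr4b-201 were 96.0% identical over 910 aligned bases, with 36 differences, a longest identical run of 126 bases and 1 gap of 2 bases. Their 3′ untranslated stretches were 97.4% identical over 350 aligned bases, with a longest identical run of 159 bases. How reads that match both were divided is not given in the sources used here, so the sum of the pair is given beside each.

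The ends of the 2 coding sequences show where the receptors part. The stretches below run 5′ to 3′ from base 852 of each coding sequence to its stop codon, and capitals mark the bases that differ or are inserted between them.
Lilrb4a: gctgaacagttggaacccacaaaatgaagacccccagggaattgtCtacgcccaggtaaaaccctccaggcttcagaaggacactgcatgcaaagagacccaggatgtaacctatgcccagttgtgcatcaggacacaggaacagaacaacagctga
Lilr4b: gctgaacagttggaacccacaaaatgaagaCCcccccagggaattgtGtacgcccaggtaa
The 2 extra bases moved the Lilr4b frame to a TAA stop at base 912, whereas the Lilrb4a frame ran on to a TGA stop at base 1008. The additional Lilrb4a bases lie in the part of the gene that encodes the cytoplasmic tail. Past the 2 extra bases Lilr4b is read in another frame, so the inhibitory motifs of the Lilrb4a tail are not encoded there.

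Promoter windows from RefSeq (GRCm38.p6) were at hand for Havcr2, Tigit, Cd160 and Lilr4b. Those of Havcr2 and Tigit, which differed between the tissues in opposite directions, are printed for the 250 bases before the start site, with matches to the AP-1 motif TGANTCA, searched on both strands, in capitals. The Havcr2 window is chr11:46454681-46454930 (plus strand) and the Tigit window chr16:43664185-43664434 (minus strand).
Havcr2: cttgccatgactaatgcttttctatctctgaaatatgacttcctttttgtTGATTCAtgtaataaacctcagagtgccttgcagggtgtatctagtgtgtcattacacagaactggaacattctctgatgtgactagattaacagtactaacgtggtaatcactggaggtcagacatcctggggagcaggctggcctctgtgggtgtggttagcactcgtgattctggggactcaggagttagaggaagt
Tigit: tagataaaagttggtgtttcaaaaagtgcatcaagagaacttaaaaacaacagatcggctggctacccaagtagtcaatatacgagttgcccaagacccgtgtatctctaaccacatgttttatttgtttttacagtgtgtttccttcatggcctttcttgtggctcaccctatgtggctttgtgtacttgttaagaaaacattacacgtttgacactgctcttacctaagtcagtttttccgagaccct
The Havcr2 window held 1 match, 200 bases before the start, and the windows of Tigit, Cd160 and Lilr4b held none of these letters. Of 32851 windows of the same length, 6.75% held the motif. Letters of 2 further motifs were searched in the same way. The NFAT letters GGAAAA, found in 20.4% of windows, matched once in the Tigit window, 14 bases before the start, and in none of the other members' windows. The Prdm1 letters GNGAAAG, found in 19.4% of windows, matched once in the Lilr4b window and at 2 places in 1 of the 2 Cd160 windows, and not in those of Havcr2 and Tigit.

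The spleen library held 1738 barcodes and the intestinal library 1474, with none shared. After the filters 1469 splenic cells (median 5408 UMIs) and 1278 intestinal cells (median 3696 UMIs) were kept, so 3 UMIs correspond to 0.327 and 0.596 counts per 1000000 UMIs (CPM). Because splenic cells were 1.46 times deeper, shares of cells are given after each cell was thinned at random to 2089 UMIs, which left 1439 splenic and 1150 intestinal cells. Against the label of CD4+ T cells, Cd3d was found at that depth in 95.4% of intestinal and 95.1% of splenic cells, and Cd4 in 55.8% and 35.4%. Cd8a, a coreceptor chain of CD8 T cells, was found in 12.3% of intestinal cells and had no UMI in the spleen. The eGFP transcript had 6 and 7 UMIs in all, and Il10 itself was found in 59.8% of intestinal and 47.1% of splenic cells. Of the 7 myeloid markers, which matter here because LILRB4 is a myeloid receptor, Lyz2 and C1qb had no UMI in the intestinal cells and Csf1r had none in the splenic cells, while the 7 summed to 208 CPM in the intestine (171 to 270.0 over its clusters) and 179 CPM in the spleen (99.0 to 253). Most of that was Cst3 (142 and 156 CPM) and, in the intestine, Cd68 (63.2 CPM against 8.95 in the spleen), and their part in the LILRB4 levels was not tested. The natural killer markers Ncr1 and Klra8 and the mast cell markers Cpa3, Mcpt1, Mcpt2 and Ms4a2 were at 0 in both libraries. The other natural killer list genes had few UMIs, Klre1 15 in the intestine and 4 in the spleen, Klrb1c 3 and 14, and Eomes 2 and 17, and the mast cell list gene Kit had 16 and 2, with 20.7 CPM in intestinal cluster 4.

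All receptors but Tigit stood higher in the small intestine than in the spleen. Of the 6 genes, 5 were higher in the intestine by at least 1.5-fold and 1 was lower by at least that fold. Over the 9034 genes with at least 50 UMIs, 21.3% were higher and 24.2% lower by that fold. The median log2 ratio of intestine over spleen was 2.07 for the receptors and -0.021 for all genes compared.

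Lag3 had 2419 CPM in the intestine (95% interval 2376 to 2462) and 1147 CPM in the spleen (1125 to 1169), a 2.11-fold higher intestinal level (log2 ratio 1.08, 1.04 to 1.11). At equal depth a Lag3 UMI was seen in 87.7% of intestinal cells (85.7 to 89.6) and 75.7% of splenic cells (73.4 to 77.9), with medians of 4 and 2 UMIs per cell. The shares differed by 12.1 percentage points with 1 UMI required and by 18.6 with at least 2. These counts therefore do not separate the amount of Lag3 per cell from the share of cells that express it.

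Havcr2 had 112 CPM in the intestine (103 to 122) and 37.2 CPM in the spleen (33.4 to 41.4), which is 3.02-fold higher in the intestine. A Havcr2 UMI was found in 16.9% of intestinal cells (14.7 to 19.2) and 5.77% of splenic cells (4.62 to 7.10). In either tissue over 3 in 4 of the cells with the transcript had a lone UMI at this depth (77.8% and 77.1%), so the share of cells that carry Havcr2 mRNA is not fixed by these counts.

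Cd160, a glycolipid-anchored receptor known on intraepithelial and natural killer cells, had 139 CPM in the intestine (129 to 150.2) and 21.7 CPM in the spleen (199 UMIs), 6.42-fold higher in the intestine. It was found in 19.1% of intestinal cells (16.9 to 21.5) and 4.10% of splenic cells (3.14 to 5.26). The 2 CD8 chains together were at 353 CPM in the intestine and 13.8 CPM in the spleen, and without the cells that had a Cd8a or Cd8b1 UMI the log2 ratio of Cd160 was 2.30 in place of 2.68.

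The LILRB4 pair stood far higher in the intestine, by more than Cd160 when the pair was summed. Lilrb4a had 298 CPM in the intestine (283 to 314) and 51.0 CPM in the spleen (46.5 to 55.8), a 5.85-fold difference, and Lilr4b had 409 CPM (392 to 427) and 37.4 CPM (33.6 to 41.6), a 10.9-fold difference. Summed, the pair had 707 CPM in the intestine (684 to 731) and 88.4 CPM in the spleen (82.4 to 94.7). The interval of their log2 ratio, 2.89 to 3.11, does not depend on how counted reads were divided between them. Reads lost because they match both genes would be missing from the sum, and their part in the ratio was not tested. At equal depth 68.8% of intestinal cells (66.0 to 71.5) and 13.4% of splenic cells (11.7 to 15.3) had a UMI of either gene.

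The pair was also split differently in the 2 tissues. Lilr4b took 57.8% of the UMIs of the pair in the intestine (56.2 to 59.5) and 42.3% in the spleen (38.9 to 45.8). The split was alike across the intestinal graph clusters, from 53.2% to 59.7%. In the spleen it ran from 32.7% to 47.6% over 6 clusters and stood at 5 UMIs of each gene in cluster 7. Every splenic value lay under every intestinal one, but intervals of single clusters overlapped. Cluster 4 of the spleen had an interval of 41.2% to 54.0% and cluster 4 of the intestine 47.6% to 58.7%. How reads were divided between the pair is not given, so the split itself is uncertain.

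Tigit was the exception, with 23.8 CPM in the intestine (19.8 to 28.5) and 35.8 CPM in the spleen (32.0 to 39.9), a 1.5-fold higher splenic level (log2 ratio -0.59, -0.90 to -0.28). It was found in 5.22% of intestinal cells (60 of 1150) and 7.44% of splenic cells (107 of 1439), and the intervals of the 2 shares overlapped between 6.13% and 6.67%. The ratio sat at the threshold of 1.5-fold and fell under it in 4 of 9 other settings, while its sign held in all 9. Without cells that had a Cd8a or Cd8b1 UMI the shares differed by 0.300 percentage points.

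**Figure D1:**
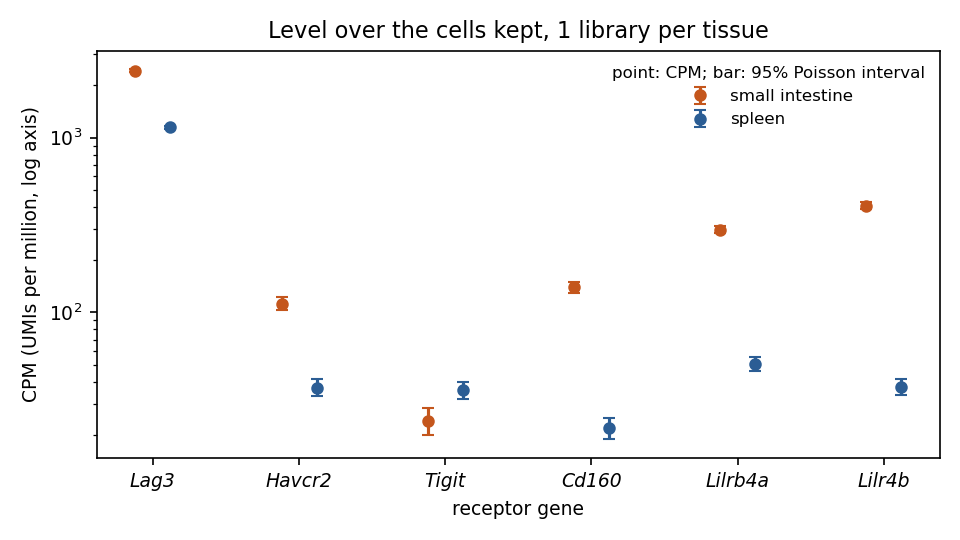
Level of each receptor gene over the cells kept, in CPM on a log axis, with 95% Poisson intervals, for the 1 library of each tissue. The intestinal point lies above the splenic point for Lag3, Havcr2, Cd160, Lilrb4a and Lilr4b, from 2.11-fold for Lag3 to 10.9-fold for Lilr4b, and below it for Tigit.

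Intestinal cells carried more of the receptors at once. At equal depth 75.7% of intestinal cells (73.1 to 78.1) and 22.4% of splenic cells (20.2 to 24.6) had UMIs of at least 2 of the 6, a difference of 53.3 percentage points (49.9 to 56.4). At least 3 were found in 41.2% of intestinal and 4.86% of splenic cells, and at least 4 in 10.8% and 0.695%. No receptor was found in 3.65% of intestinal cells (2.64 to 4.90) and 19.8% of splenic cells (17.8 to 22.0). The mean was 2.25 receptors per intestinal cell and 1.08 per splenic cell. Counting Lilrb4a and Lilr4b as 1 receptor, the difference in cells with at least 2 was 51.8 percentage points (48.4 to 55.1). That count still includes the pair, found as either gene in 68.8% of intestinal and 13.4% of splenic cells. It therefore does not show how much of the difference rests on the pair. The difference over Lag3, Havcr2, Tigit and Cd160 alone was not tested. The shares of cells with several receptors depend on depth, and without thinning 87.1% of intestinal and 45.2% of splenic cells had at least 2.

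The combinations, which depend on the separate share of each receptor, differed as well. They were not set beside the product of those shares, which is given below for pairs only. In the spleen 54.1% of cells (779 of 1439) had Lag3 and no other of the 6, against 16.2% in the intestine (186 of 1150). The most frequent intestinal combination was Lag3 with Lilrb4a and Lilr4b, at 16.8% of cells (193), followed by Lag3 alone and by Lag3 with Lilr4b at 14.6% (168). In the spleen no combination of 2 or more passed the 4.52% of Lag3 with Lilrb4a (65 cells). Of the 64 possible combinations 49 were seen in the intestine and 31 in the spleen. Any receptor other than Lag3 was found in 80.2% of intestinal and 26.1% of splenic cells.

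**Figure D2:**
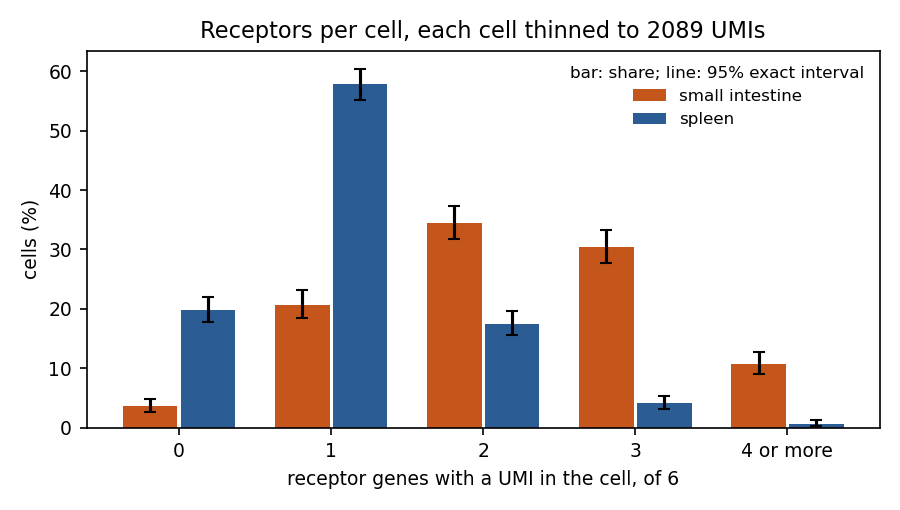
Share of cells, in percent, with UMIs of 0, 1, 2, 3, or 4 or more of the 6 receptor genes, each cell thinned to 2089 UMIs, with exact 95% intervals. Splenic cells peak at 1 receptor (57.8%), and intestinal cells at 2 (34.4%) and 3 (30.4%).

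Detection of 2 receptors in the same cell was next set beside the product of their separate shares, for the 15 pairs. In the intestine 10 of 15 pairs were found together more often than the product, between 0.610 and 1.38 times it, and the interval of 1 pair, Lilrb4a with Lilr4b (1.20 times), lay wholly above the product. In the spleen 13 of 15 pairs exceeded the product, and 4 had intervals above it. These were Lilrb4a with Lilr4b (3.32 times, 27 cells), Havcr2 with Lilr4b (2.50 times, 13 cells), Tigit with Lilrb4a (2.07 times, 20 cells) and Havcr2 with Lilrb4a (1.04% of cells against a product of 0.521%, 15 cells). Cd160 went the other way with the LILRB4 pair, at 0.188 times the product with Lilrb4a (1 cell) and 0.542 times with Lilr4b (2 cells) in the spleen, and at 0.826 and 0.886 times in the intestine, with no interval wholly below the product. The 15 pairs share cells and genes and are not independent. Each interval is that of the joint share, with the product taken as fixed. Lilrb4a and Lilr4b are near-identical in sequence, and the part of reads of 1 gene counted under the other in their joint detection was not tested.

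Much of the splenic excess lay between graph clusters rather than within them. With the product taken inside each graph cluster and summed, a choice made after seeing the data, Havcr2 with Lilrb4a came to 1.02 times the product, Havcr2 with Lilr4b to 1.31 and Lilrb4a with Lilr4b to 1.88. Under that product 2 splenic intervals still lay above it, those of Lilrb4a with Lilr4b and of Tigit with Lilrb4a (1.64 times). The intestinal ratios moved little, with Lilrb4a and Lilr4b at 1.16.

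**Figure D3:**
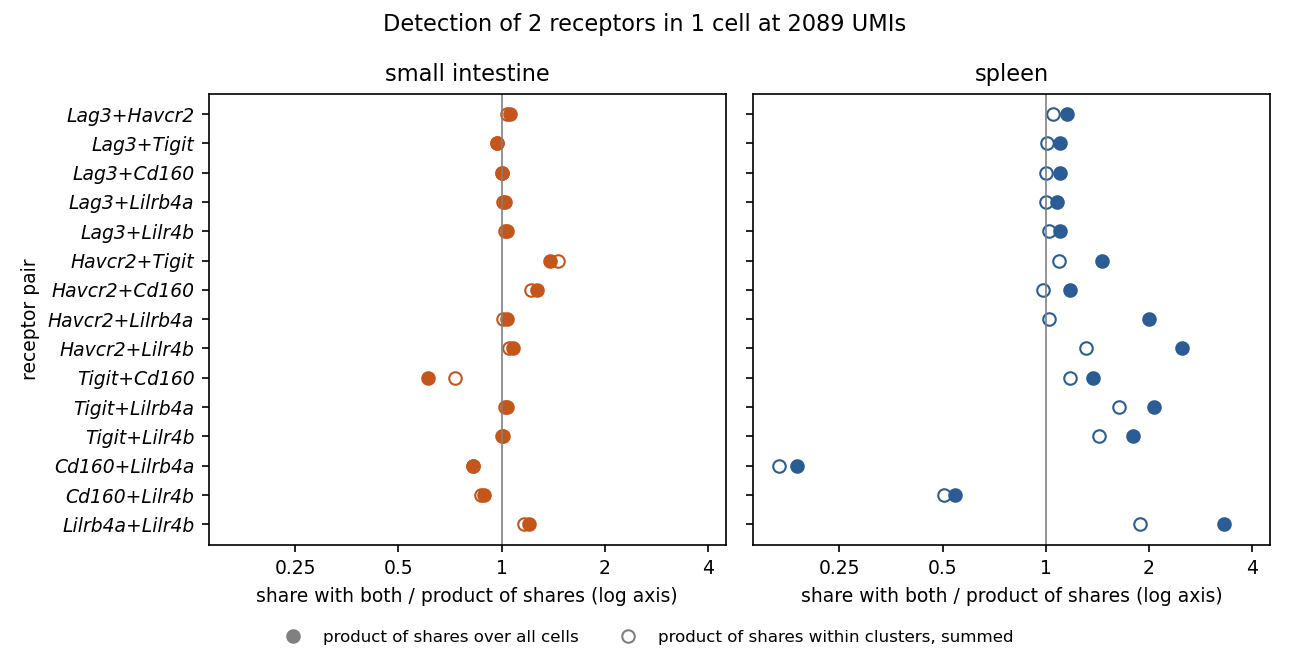
Share of cells with UMIs of both genes of a pair over the product of the separate shares (log axis), for 15 receptor pairs in each tissue, with the product taken over all cells (filled) or within graph clusters and summed (open). In the spleen the open points of Havcr2 with Lilr4b (1.31) and Lilrb4a with Lilr4b (1.88) lie nearer to 1 than the filled points (2.50 and 3.32).

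Graph clusters of the cells, built without the receptor genes, gave 6 clusters in the intestine and 7 in the spleen, and the receptors varied among them. A cluster is described here by its leading genes and has no name beyond them.

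In the spleen all receptors but Tigit stood highest in cluster 6, led by the chemokine genes Ccl5, Ccl4 and Ccl3 with Gzmk and Nkg7 (156 cells). There Havcr2 reached 157 CPM (132 to 186), Lilrb4a 156 CPM (131 to 185), Lilr4b 111 CPM (89.6 to 135), Cd160 58.3 CPM (43.3 to 76.9) and Lag3 1838 CPM (1748 to 1931), each the highest value of the 7 splenic clusters. The Lag3 interval overlapped with that of cluster 1 (1715 CPM, 1648 to 1785), where 90.2% of cells had a Lag3 UMI against 88.0% in cluster 6. Intervals also overlapped for Lilr4b with cluster 4 and for Cd160 with cluster 7. With 20 neighbours in the graph, Havcr2, Lilrb4a and Lilr4b still peaked together in 1 splenic cluster, but Lag3 and Cd160 did not. Lag3 was at 1675 CPM in that cluster and highest in another (1792 CPM). Cd160 was at 33.1 CPM there and highest in a further cluster (47.4 CPM). The peak of Lag3 and Cd160 in cluster 6 thus depended on the clustering. At least 2 receptors were found in 57.3% of its cells (49.0 to 65.4). Cluster 4, led by Gzmb, Lgals3 and S100a4, came next for Havcr2 (72.6 CPM) and for both LILRB4 genes (89.9 and 81.6 CPM), with 36.2% of cells at 2 or more.

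Low splenic values of Lag3, Havcr2, Tigit and the LILRB4 genes were in cluster 2, led by Pik3ip1, Ccr7 and Tcf7, genes known from naive and recirculating T cells, and in cluster 7, led by Bach2 and Itm2a. In cluster 2 Lag3 was at 439 CPM (401 to 479.8) and was found in 45.0% of cells, Havcr2 had 2 UMIs in all (1.78 CPM, 0.216 to 6.44), and 3.85% of cells had 2 or more receptors (1.86 to 6.96). The Havcr2 ratio of cluster 6 over cluster 2 was 6.47 on the log2 scale, with a counting interval of 4.58 to 9.53. The share of cells with a UMI ran over the splenic clusters from 0.385% to 21.3% for Havcr2 and from 0.806% to 27.3% for Lilrb4a, and over the intestinal clusters from 10.8% to 22.1% and from 34.9% to 61.8%. No cell type that lacks these receptors was at hand in either library, so the part of free RNA in these shares was not tested.

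The level of Tigit peaked in another splenic cluster, and Cd160 stood high in cluster 7 as well as in cluster 6. Tigit was highest in cluster 1, led by Tnfsf8 with Il21 and Cxcr5 among its leading genes, at 55.8 CPM (44.3 to 69.5). Its interval overlapped with those of clusters 4, 5 and 6. Of the follicular helper marker list, Cxcr5, Tbc1d4 and Bcl6 (10 UMIs) were highest in cluster 1. Izumo1r of that list (750.2 CPM) was higher in clusters 2 (1115 CPM) and 5 (984 CPM). In cluster 1 Lag3 was at 1715 CPM, whereas Havcr2 was at 9.77 CPM and Lilr4b at 11.9 CPM. Cd160 was next highest in cluster 7 (48.4 CPM, 35.0 to 65.2), where Lilrb4a and Lilr4b had 5 UMIs each.

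Intestinal clusters differed less for the LILRB4 genes. Lilrb4a ran from 216 CPM in cluster 5 to 464 CPM in cluster 6 and Lilr4b from 257 CPM in cluster 4 to 603 CPM in cluster 6, the cluster led by Sv2c and Ramp3. Every intestinal cluster stood above every splenic cluster for both genes. For Lag3 the clusters of the tissues overlapped, from 1075 to 3454 CPM in the intestine and from 439 to 1838 CPM in the spleen, as they did for Havcr2, Tigit and Cd160.

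The intestinal cluster 4, led by Il17a and Tmem176b, had the lowest Cd160 (17.7 CPM, 9.15 to 30.9) and Havcr2 (50.2 CPM, 34.7 to 70.1), and 53.4% of its cells had 2 or more receptors (45.0 to 61.6) against 70.0% to 89.0% in the other 5. Cluster 5, led by Cd8b1 and Cd8a, had the highest Cd160 (234 CPM, 201 to 271). Its Cd160 interval overlapped with those of cluster 6 (229 CPM, 192 to 273) and cluster 3 (208 CPM, 176 to 245). Havcr2 was at 147 CPM in cluster 5, below cluster 6 (160.0 CPM) and cluster 1 (149.6 CPM), with overlapping intervals. Cluster 5 also had the lowest Tigit, with 5 UMIs (6.54 CPM, 2.12 to 15.3). Lag3 was highest in cluster 2, led by S100a6 (3454 CPM), and in cluster 1, led by Ccl4 (3330.5 CPM).

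**Figure D4:**
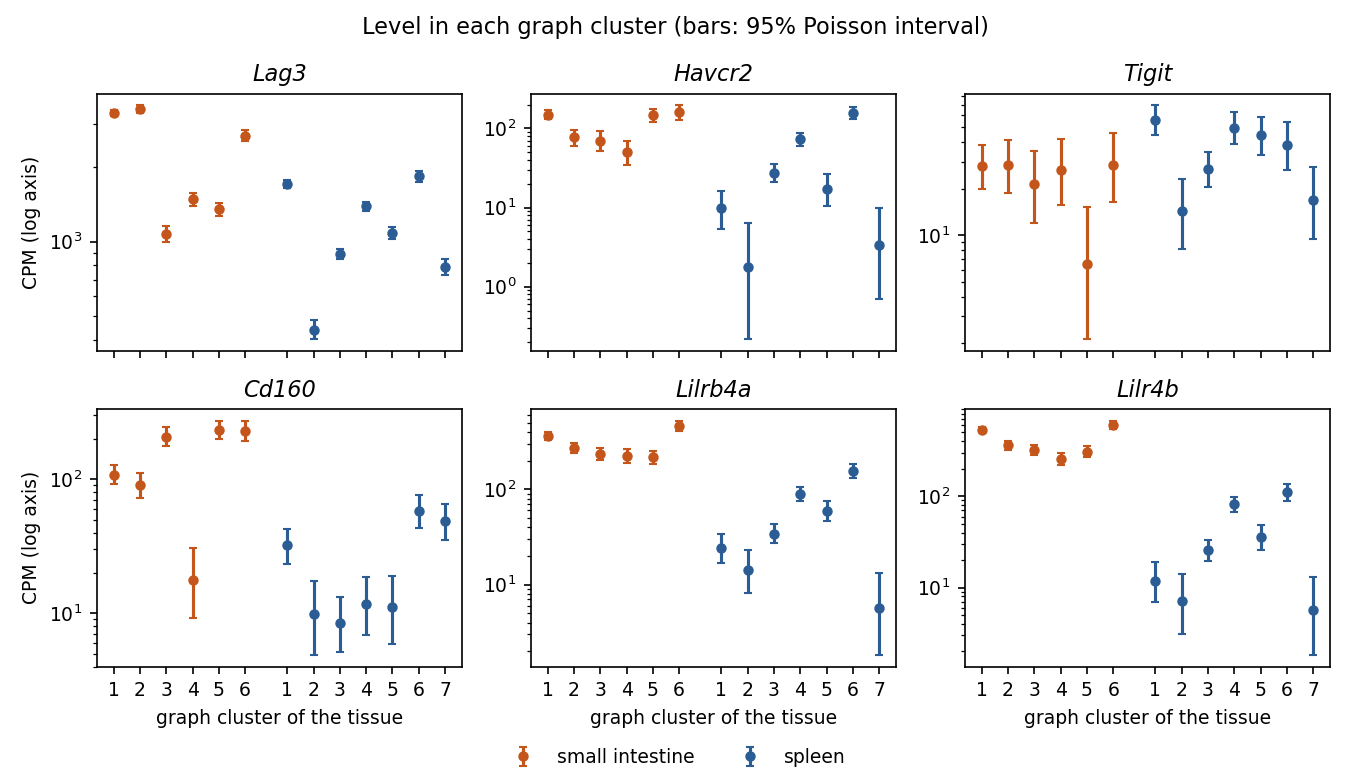
Level of each receptor gene in the 6 intestinal and 7 splenic graph clusters, in CPM on a log axis, with 95% Poisson intervals. All intestinal points of Lilrb4a and Lilr4b lie above all splenic points, and Havcr2 in the spleen spans 1.78 to 157 CPM.

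Cells were removed where their profile placed them in G2/M, and some receptors stood at other levels in these cells than in G1 cells. The 61 intestinal G2/M cells had Lag3 at 1102 CPM (1001 to 1211) against 2448 CPM in 1264 G1 cells (2405 to 2492), and Havcr2 at 50.4 CPM (30.8 to 77.9) against 112 CPM. Intestinal Cd160, Lilrb4a and Lilr4b were also lower in G2/M, at 83.2, 199 and 257 CPM against 139, 300.1 and 413 CPM, while Tigit was at 22.7 against 24.3 CPM with overlapping intervals. In the spleen 179 G2/M cells had Lag3 at 1107 CPM (1056 to 1159) against 1169 CPM (1146 to 1192) in 1412 G1 cells, and Lilr4b at 56.3 CPM (45.3 to 69.0) against 37.6 CPM (33.6 to 41.9). Splenic Cd160 was lower in G2/M, at 10.4 CPM (6.06 to 16.6) against 22.3 CPM (19.3 to 25.8). The G2/M cells were deeper than G1 cells, with medians of 6110 against 3687 UMIs in the intestine and 8621 against 5356 in the spleen.

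All cells were sorted on the IL-10 reporter, and the number of Il10 UMIs was compared with the receptors within each tissue, at equal depth. Of the 6 receptors, Lag3 followed Il10 in both tissues. In intestinal cells with 0, 1, 2, 3, and 4 or more Il10 UMIs Lag3 stood at 2018, 2390.3, 3039.7, 3199 and 3801 CPM. In the spleen the same classes had 1047, 1356, 1549, 1620.2 and 1630.2 CPM. Cells with an Il10 UMI had 1.43-fold more Lag3 than cells without in the intestine (log2 0.52, 0.44 to 0.60) and 1.41-fold more in the spleen (0.49, 0.40 to 0.59). Across 6 random thinnings of the same cells the Lag3 ratio ran from 1.25-fold to 1.43-fold in the intestine. In the spleen it ran from 1.26-fold to 1.51-fold and passed 1.5-fold in 1 thinning. Every interval of these ratios lay above 0 on the log2 scale. The sign held in 5 of 6 intestinal clusters and 7 of 7 splenic clusters, with 5 and 4 intervals above 0.

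The number of receptors followed Il10 less. In the intestine 76.9% of 688 cells with an Il10 UMI had 2 or more receptors, against 73.8% of 462 cells without, a difference of 3.08 percentage points whose interval spanned 0 (-1.95 to 8.23). In the spleen the shares were 26.4% of 678 cells and 18.8% of 761 cells, a difference of 7.61 percentage points (3.29 to 11.9). Splenic cells with an Il10 UMI had been deeper before thinning, with a median of 6055.5 UMIs against 5080. The splenic difference did not hold inside clusters, where the mean of the differences, weighted by cells, was 1.28 percentage points (added after seeing the data), with 4 of 7 clusters above 0 and no interval off 0. It was 0.139 percentage points (-1.82 to 2.16) when 2 UMIs were required for each receptor and 2.07 (-1.80 to 6.11) at 1500 UMIs per cell. Over cells, Spearman's rho between Il10 UMIs and the number of receptors was 0.071 in 1150 intestinal cells and 0.16 in 1439 splenic cells, in sparse counts of cells that share 1 library and 1 depth.

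No receptor passed 1.5-fold between intestinal cells with and without an Il10 UMI, where 3.39% of 4931 genes were higher and 2.58% lower by that fold. In the spleen Havcr2 (1.60-fold, 64 and 45 UMIs) and Lilrb4a (1.54-fold, 100 and 73 UMIs) were higher by that fold and none was lower, against 5.15% of 5496 genes higher and 3.09% lower. Over 6 random thinnings of the same cells Havcr2 ranged from the threshold of 1.5-fold to 2.33-fold and passed in all 6, whereas Lilrb4a ranged from 1.13-fold to 1.54-fold and passed in 2. Splenic Lilr4b reached 1.99-fold and passed in 2, Tigit ranged from 0.912-fold to 1.62-fold and passed in 1, and Cd160 ranged from 0.539-fold to 1.20-fold and was lower past the threshold in 2. Inside the splenic clusters Havcr2 was higher with Il10 in 4 of 7 and no interval lay off 0. Lilr4b was 1.22-fold higher with Il10 in the intestine (log2 0.29, 0.10 to 0.48). Over the 6 thinnings it ran there from 1.20-fold to 1.32-fold, with the interval above 0 in all 6. Tigit and Cd160 had intervals that spanned 0 in both tissues under the thinning reported here.

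Turned round, Il10 was lowest in cells in which no receptor was found. It stood at 239 CPM in these intestinal cells (148 to 366, 42 cells) and between 573 and 666 CPM in cells with 1, 2, 3, or 4 or more receptors. In the spleen it stood at 292 CPM (250.4 to 339, 285 cells) with none, 506 CPM (473 to 540.3) with 1, 564 CPM with 2 and 582 CPM (457 to 732) with 3. The 10 splenic cells with 4 or more had 383 CPM (165 to 755), and from 1 receptor upward neighbouring intervals overlapped in both tissues. Lag3 was found in 87.7% of intestinal and 75.7% of splenic cells, so this comparison is in large part that of Lag3 again. Splenic clusters 2 and 7, lowest in Lag3, were also lowest in Il10 (144 and 117 CPM). Whether the difference holds inside clusters was not tested.

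**Figure D5:**
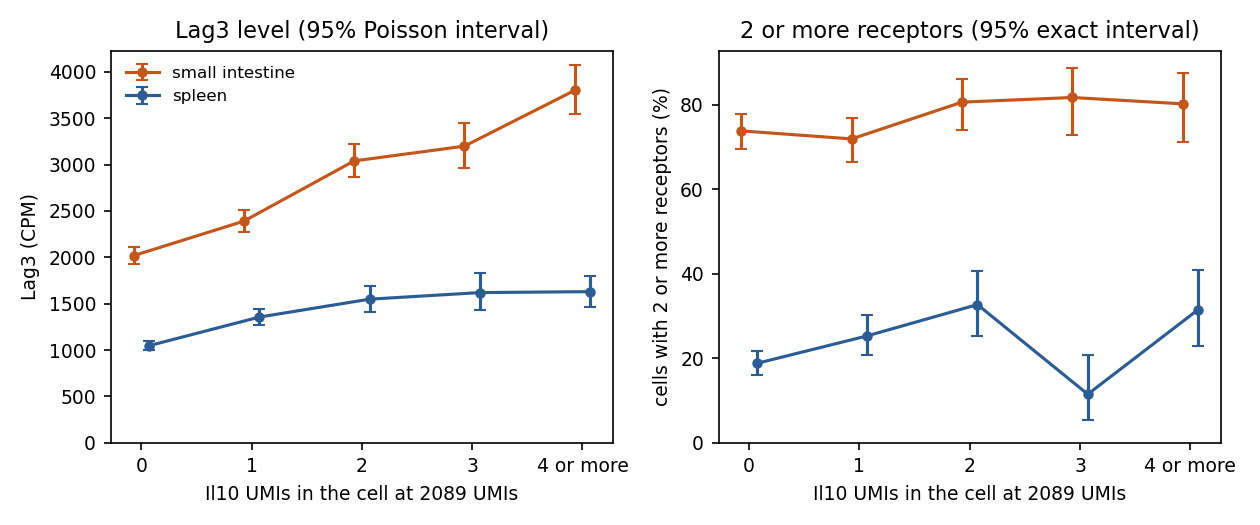
Lag3 level in CPM (left, 95% Poisson intervals) and share of cells with 2 or more receptors in percent (right, exact 95% intervals) by the number of Il10 UMIs in the cell, each cell thinned to 2089 UMIs. Lag3 goes from 2018 to 3801 CPM in the intestine and from 1047 to 1630.2 CPM in the spleen, while the splenic share with 2 or more receptors has no steady course (18.8%, 25.3%, 32.7%, 11.5% and 31.5%).

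Foxp3, the factor of regulatory T cells, was found in 8.13% of splenic cells and 1.30% of intestinal cells at equal depth, so the receptors were compared by Foxp3 UMI in the spleen only, between 117 cells with and 1322 without. Cells with a Foxp3 UMI had less Lag3, 986 against 1272 CPM (log2 -0.37, -0.56 to -0.18), with a Lag3 UMI in 75.2% and 75.7% of cells. They had more Il10, 720.1 against 454 CPM (log2 0.66, 0.43 to 0.89), so Lag3 did not follow Il10 in this comparison. The cells with Foxp3 had been deeper before thinning, with a median of 6644 UMIs against 5402.5. Cd160 was lower by more than 1.5-fold, with 2 UMIs against 78 (8.18 and 28.2 CPM, log2 -1.79, -4.86 to 0.11), and at full depth the log2 ratio was -1.38 (-2.08 to -0.75). That was 1 of 6 receptors lower and 0 higher by 1.5-fold, against 14.7% of 5496 genes lower and 10.4% higher. Havcr2, Tigit, Lilrb4a and Lilr4b had between 7 and 20 UMIs in the Foxp3 cells and intervals that spanned 0, and the log2 ratios of Lilrb4a (0.56) and Lilr4b (0.34) were -0.13 and -0.33 at full depth. Cells with 2 or more receptors made up 22.2% (15.1 to 30.8) of cells with Foxp3 and 22.4% (20.2 to 24.7) of cells without.

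Genes of the same pathways were read from fixed lists. Over all 9034 genes compared, 21.3% were higher and 24.2% lower in the intestine by 1.5-fold. The list of other coinhibitory receptors had 19 symbols, with alternative names for some genes. Of these symbols 16 were in the files and 13 had enough UMIs. Of the 13, 6 were higher and 5 lower in the intestine by that fold, with a median log2 ratio of -0.039. The 6 include Entpd1 (1.52-fold) and Nt5e (1.61-fold), which encode surface enzymes. Ctla4, which takes CD80 and CD86 from antigen-presenting cells, was at 1409.7 CPM in the intestine and 1449 CPM in the spleen. Pdcd1, encoding PD-1, was lower in the intestine (93.6 and 143 CPM), as was Btla (3.38 and 63.0 CPM), and Cd244, a SLAM family receptor, was higher (11.5 and 0.764 CPM).

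Of 11 ligand and partner genes with enough UMIs, 6 were higher and 3 lower in the intestine, with a median log2 ratio of 1.08. On the TIGIT axis both other receptors of its ligand were higher in the intestine, Cd226 at 28.4 against 6.99 CPM and Cd96 at 148 against 35.3 CPM, while the ligand gene Pvr was lower, at 8.74 against 20.7 CPM. Itgav and Itgb3, the chains of an integrin bound by LILRB4, were at 65.0 and 10.5 CPM in the intestine and 30.8 and 3.82 CPM in the spleen. Of the TIM-3 ligands Hmgb1 was lower in the intestine (404 and 807 CPM) and Lgals9 was close (57.2 and 61.5 CPM), and Ceacam1 had 1 UMI in all. The MHC class II genes H2-Aa and H2-Ab1, whose products LAG-3 binds, were at 12.5 and 12.9 CPM in the intestine and 3.71 and 3.49 CPM in the spleen. The B cell genes Cd79a and Cd79b were at 5.17 and 7.95 CPM in the intestine and 0.655 and 5.78 CPM in the spleen. Ms4a1, of the same list, had 2 UMIs in the intestine and 0 in the spleen. The part of B cell RNA in the class II levels was not tested. Fgl1 and Clec4g had no UMI.

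Of 8 signalling and shedding genes 1 was higher and 1 lower in the intestine by 1.5-fold, with a median log2 ratio of 0.006. These were Inpp5d, encoding the phosphatase SHIP-1, at 90.4 against 35.0 CPM, and Ptpn6, encoding SHP-1, at 44.7 against 102 CPM. Adam17, which sheds LAG-3, was at 23.4 and 23.0 CPM. Of 10 regulators with enough UMIs 3 were higher and 2 lower, with a median of 0.032. Id2 (2138 and 453 CPM) and Bhlhe40 (243 and 68.2 CPM) were higher in the intestine, and Batf (186 and 377 CPM) and Irf4 (19.1 and 75.5 CPM) lower. Itga2, encoding CD49b, a further surface marker that the study paired with these receptors, had 17 and 7 UMIs, too few to compare.

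The genes whose level ran most like each receptor were ranked over the 13 clusters among 6664 genes with at least 50 UMIs in each tissue. For Havcr2 the nearest were Nkg7, a granule protein gene (Pearson's r = 0.961), Tmx3 (0.957) and Gzmb (0.937). Lilr4b was nearest to Dusp5, a MAP kinase phosphatase gene (0.994), and to Dgat1 (0.991). Lilrb4a was nearest to Lilr4b itself (0.987), a pair whose division of reads is not given. Cd160 ran with Nr4a2, an orphan nuclear receptor induced by T cell receptor signals (0.970), and with Amica1 (0.963), Tigit with Cd82 (0.930) and Lag3 with Farp1 (0.893) and Jak3 (0.888). The clusters of a tissue share 1 library, so these values describe the pattern over clusters, and part of each r is the difference between the tissues. Within the 6 intestinal and 7 splenic clusters taken apart, r was 0.78 and 0.98 for Havcr2 with Nkg7 and 0.94 and 0.96 for Cd160 with Nr4a2.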

How the data were processed

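Droplet libraries (10x Genomics Chromium) of IL-10+ CD4+ T cells, 1 per tissue, were deposited by the authors as matrices of raw UMI counts per gene and cell. The submitters' processing notes name Cell Ranger, Trimmomatic, mm10 and mm8 without roles or versions, and the study's methods give Mm10. How reads of near-identical genes were counted is not given in the sources used here, and reads matching several places can be lost or divided, which bears on Lilrb4a and Lilr4b.

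From these counts, barcodes over 3 median absolute deviations below the median for total UMIs or genes, or above it for the mitochondrial share, and cells called G2/M by cyclone were left out (scran 1.30.0, scuttle 1.12.0, R 4.3.3). This removed 135 intestinal and 90 splenic barcodes for quality and 61 and 179 for phase. The number of cells the study states lies between the barcodes and the cells kept. Scrublet (scanpy 1.11.5) marked 12 intestinal and 3 splenic barcodes as doublets, and these were kept except in the alternative without them. Clusters came from a nearest-neighbour graph with 10 neighbours (bluster 1.12.0), without the genes named in the lists. Levels are the UMIs of a gene summed over cells and divided by all UMIs of those cells (counts per 1000000, CPM), with exact Poisson 95% intervals, and ratios have exact binomial intervals. Shares were taken after thinning without replacement to 2089 UMIs, the 10th percentile of the kept intestinal cells, with exact binomial intervals, and differences of shares have Newcombe intervals. Genes with at least 50 UMIs over both libraries were compared, and a 1.5-fold difference was the only call. With 1 library a tissue there was no test between tissues and no p-value. The ratios and their intervals were tried on simulated Poisson counts, the error that the intervals assume, so spread between cells was not part of that trial. Likeness was Pearson's r of log2(CPM + 10) over clusters, with the 5 nearest genes ranked. Sequences came from GRCm38 with GENCODE M21 and from RefSeq (GRCm38.p6), read with biopython 1.88.

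The receptors, the further lists and the rule for named genes (the receptors, the list members with the largest and smallest ratios, and the nearest genes by likeness) were chosen with earlier results of these data known. Other list genes were named for their roles after their values were seen. Alternatives were other cell filters, totals, depths, seeds, detection limits and neighbour numbers.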

Additional observations from a re-analysis of the deposited data

How the results depend on the processing

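Each tissue is 1 library, so no replicate could be left out. No paired analysis was possible because each tissue has 1 library and the labels give no replicate numbers. By Foxp3 UMI in the spleen, where both intervals spanned 0, Lilrb4a changed sign without thinning (0.56 to -0.13) and Lilr4b without thinning (0.34 to -0.33) and with at least 2 Foxp3 UMIs required (-0.15). So did single receptors by Il10 UMI over the thinnings (Tigit and Cd160 in both tissues, Havcr2 and Lilrb4a in the intestine), and single clusters differed in sign. Receptor pairs near their product crossed it, such as splenic Havcr2 with Cd160 (1.18 times, and 0.980 within clusters). Pairs above the product numbered 10 in the intestine, 12 at 3000 UMIs and 11 within clusters. The same counts were 13, 13 and 12 in the spleen. Apart from these, no result changed sign. Shares of cells depended on depth and on the limit of detection, from 22.0 to 55.6 percentage points for the tissue difference of Lilr4b, 12.9 to 41.9 for Lilrb4a, 4.42 to 19.7 for Cd160, 3.91 to 18.6 for Lag3, 2.42 to 15.7 for Havcr2 and -10.5 to -0.104 for Tigit. The intestinal excess over the spleen in cells with 2 or more receptors was 41.9 percentage points without thinning, 46.7 at 1500 UMIs per cell, 56.7 at 3000 UMIs per cell and 28.2 with 2 UMIs required for each receptor. The splenic difference by Il10 UMI was 23.7 percentage points without thinning, 2.07 at 1500 UMIs, 0.139 with 2 UMIs required and 1.28 within clusters, and 5.23 to 11.3 over 5 other seeds. The intestinal difference by Il10 ran from 0.829 to 7.61, and its interval lay above 0 without thinning (6.88), with 2 UMIs required for a receptor (7.61) or for Il10 (6.97) and under 1 other seed (5.84). The count of receptors lower in the intestine went from 1 to 0 where Tigit crossed 1.5-fold: its log2 ratio was -0.54 without the deepest 5% of cells, -0.45 without cells that had a Cd8a or Cd8b1 UMI, -0.57 with median-of-ratios scaling and -0.42 with totals that left out the 20 genes with the most UMIs. The count lower with Foxp3 in the spleen went from 1 to 0 with at least 2 Foxp3 UMIs required, where 15 cells remained and 3 receptors had no UMI. Among 78 values under alternatives for the main comparisons 65 stayed within their limits and 13 moved, and among 165 for single genes 134 stayed and 31 moved. A value that stayed can still read differently. The intestinal differences by Il10 whose intervals lay above 0 were counted as stayed, though the main interval spanned 0. The 20 genes with the most UMIs took 22.7% of UMIs in the intestine and 13.4% in the spleen.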
